A study of Mus musculus with 26 samples.

Results

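The mir-23/27/24 family of the mouse is encoded in 2 short clusters of miRNA genes, and the levels of its 6 members were followed in the dorsal (dHC) and ventral (vHC) hippocampus after acute stress. Cluster a holds mmu-mir-23a, mmu-mir-27a and mmu-mir-24-2, and cluster b holds mmu-mir-23b, mmu-mir-27b and mmu-mir-24-1. The members were taken by name from the miRBase rows of the deposited small RNA count table, which has 1054 miRNA entries among 1360 entries in all. All 6 were present, and all 6 were among the 463 miRNA entries that passed the filter on low counts. The members were chosen by name and not by a measured value, though with earlier results of these data known.

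Small RNA was sequenced from 26 libraries of male C57BL/6J mice aged 2 to 3 months, with both hemispheres taken. The groups were home cage controls (8 libraries of vHC and 6 of dHC) and mice that had swum for 6 min in water of 18°C and were collected 45 mins after the swim began (6 libraries of vHC and 6 of dHC). Controls and swim mice alike were wild type and had been housed singly beforehand. The labels name 3 blocks, and the methods describe 3 batches of library preparation. Library numbers are those of the labels and run across the groups, so that each number names a single library. Each block held all 4 groups, with 10 libraries in block 1 and 8 in each of blocks 2 and 3. Libraries are treated as separate samples, although the labels do not say which dHC and vHC libraries came from the same mouse. Tissue was whole dHC or vHC, and fewer cells of a type cannot be told apart from less RNA per cell.

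A miRNA precursor is cut into a short duplex, of which mainly 1 arm is loaded into an Argonaute protein and guides it to mRNAs that pair with the seed, bases 2 to 8 of the miRNA. Genes of a miRNA cluster are usually transcribed together as a single primary RNA, and the levels of their mature miRNAs can still differ through processing and turnover. The mir-23/27/24 clusters are known from work on blood vessels, lipid metabolism and immune cells, and both copies are expressed in many tissues. The family has 3 seeds, so that each cluster supplies 3 different miRNAs and its copy supplies nearly the same 3 again.

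On the plus strand of chromosome 8 of GRCm38, cluster a runs from 84208518 to 84208921, a span of 404 bases. Its genes are mmu-mir-23a (84208518 to 84208592), mmu-mir-27a (84208672 to 84208758) and mmu-mir-24-2 (84208815 to 84208921). In the GENCODE annotation mmu-mir-24-2 overlaps an exon of the lincRNA Gm26532, and the other genes of cluster a lie in no other annotated gene. Cluster b is spread over 792 bases of the plus strand of chromosome 13, from 63300484 to 63301275. There mmu-mir-23b (63300484 to 63300557) lies in an intron of 2010111I01Rik. Further along, mmu-mir-27b (63300712 to 63300784) and mmu-mir-24-1 (63301208 to 63301275) lie within an exon of the same gene. An intron of Fancc covers cluster b on the opposite strand.

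The mature sequences are shown because they set what a count of each entry can mean. They were taken from RefSeq (GRCm38.p6), where 11 mature arms were listed for the 6 precursors, with the seed in capitals. The 3p arms follow first.
mmu-miR-23a-3p (mmu-mir-23a): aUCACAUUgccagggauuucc
mmu-miR-27a-3p (mmu-mir-27a): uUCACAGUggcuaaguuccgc
mmu-miR-27b-3p (mmu-mir-27b): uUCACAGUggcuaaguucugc
mmu-miR-24-3p (mmu-mir-24-1 and mmu-mir-24-2): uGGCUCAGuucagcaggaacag

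The 5p arms, which come from the other side of each hairpin, differ more between the clusters. mmu-mir-23b also gives mmu-miR-23b-3p, whose sequence was not used here.
mmu-miR-23a-5p (mmu-mir-23a): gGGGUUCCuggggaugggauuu
mmu-miR-23b-5p (mmu-mir-23b): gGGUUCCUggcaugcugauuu
mmu-miR-27a-5p (mmu-mir-27a): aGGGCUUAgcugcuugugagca
mmu-miR-27b-5p (mmu-mir-27b): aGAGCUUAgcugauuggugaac
mmu-miR-24-2-5p (mmu-mir-24-2): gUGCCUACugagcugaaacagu
mmu-miR-24-1-5p (mmu-mir-24-1): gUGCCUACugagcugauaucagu

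miR-24-3p is the same sequence from both clusters. miR-27a-3p and miR-27b-3p share their first 18 bases and differ by C19U, counted from 1 at the 5′ end and with the base of miR-27a-3p first. The seeds of miR-23a-3p and miR-27a-3p are the similar runs UCACAUU and UCACAGU. miR-27a-5p and miR-27b-5p differ at 8 of 22 positions, the seed included. Another miRNA, miR-128-3p, reads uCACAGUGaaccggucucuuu, and its bases 2 to 7 are bases 3 to 8 of miR-27a-3p (CACAGU). The seed of miR-24-3p is also that of 4 other miRNAs in the RefSeq table, so that 5 share it in all.

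The identity of sequences shows in the counts. A sequence that matches several entries was split among them by the counting software, and every member count was a multiple of 0.5. For mmu-mir-24-2 and mmu-mir-24-1 the counts left the same fraction (both whole or both not whole) in 26 of 26 libraries, and the same held for mmu-mir-27a and mmu-mir-27b in 26 of 26. For mmu-mir-23a and mmu-mir-23b this was so in 25 of 26 libraries. How much of each count was shared cannot be read from the table, and an even split pulls the ratio of a copy to the other toward 1. The level of a single copy is therefore uncertain, above all for the mir-24 entries.

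Each library held between 465387 and 4819724 miRNA counts, and the 6 members together took 2.98% to 4.54% of them. The median share was 3.52% in control vHC, 3.74% in swim vHC, 4.25% in control dHC and 4.15% in swim dHC. A few libraries stood apart. Control dHC library 24 was the shallowest and had the highest normalised mmu-mir-23a, mmu-mir-23b, mmu-mir-27a and mmu-mir-27b of all 26 libraries. Its TMM normalisation factor, 0.749, was the lowest of the 26, and a low factor raises normalised CPM. Before that scaling the members took 3.46% of its miRNA counts, the lowest share in control dHC. Swim dHC library 6 had the lowest mir-23 and the highest mir-24 levels, and control vHC library 1 had the lowest mir-24 and mir-27 levels. As a check of the tissue, the neuronal entries mmu-mir-9-1, mmu-mir-124-1 and mmu-mir-128-1 had median levels of 36688, 12898 and 23732 normalised CPM over the 26 libraries. Normalised CPM is the usual per-library scaling of counts, here to the miRNA counts of a library after TMM normalisation, and values were not divided by length, since the mature miRNAs counted are of nearly the same length.

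The most abundant member was mmu-mir-27b, with a median of 8586 normalised CPM over 26 libraries and rank 38 of 463 entries. It was followed by mmu-mir-23b at 7396, mmu-mir-27a at 5975, mmu-mir-24-2 at 5780, mmu-mir-24-1 at 5613 and mmu-mir-23a at 4272 normalised CPM, the last at rank 66. The order was stable at its ends. mmu-mir-27b was above mmu-mir-23b in 21 of 26 libraries and above mmu-mir-27a in 26 of 26. mmu-mir-23b was above mmu-mir-27a in 22. In the middle, mmu-mir-27a was above mmu-mir-24-2 in only 15 of 26 libraries, and these neighbours do not differ beyond their spread. mmu-mir-24-1 was above mmu-mir-23a in 20 of 26.

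The values per group show the spread between libraries. The 8 control vHC libraries had 6377 to 9907 normalised CPM of mmu-mir-27b, with a median of 7880, and the 6 swim vHC libraries had 7774 to 10182, with a median of 8423. The 6 control dHC libraries had 8482 to 11225, with a median of 9415, and the 6 swim dHC libraries had 7616 to 9797, with a median of 8991. Of the 6 control dHC libraries 3 were above every control vHC library, and 6 of the 8 control vHC libraries were below every control dHC library, but the ranges overlapped. mmu-mir-27a had medians of 5509, 5975, 6313 and 6001 normalised CPM in control vHC, swim vHC, control dHC and swim dHC, within 4532 to 7827.

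For mmu-mir-24-1 the control vHC libraries had 3042 to 6087 normalised CPM, with a median of 5116, and the swim vHC libraries 4739 to 7234, with a median of 5428. The control dHC libraries had 5148 to 6929, with a median of 5613, and the swim dHC libraries 4410 to 8118, with a median of 6281. The low end of control vHC was set by library 1 and by the block 2 libraries 17 and 23, at 3042, 3467 and 3966. mmu-mir-24-2 followed the same pattern, with medians of 5332, 5661, 5780 and 6595 normalised CPM in the same order of groups, within 3165 to 8751.

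The control vHC libraries had 6784 to 9027 normalised CPM of mmu-mir-23b, with a median of 7085. The swim vHC libraries had 6300 to 7810, with a median of 6959, and the control dHC libraries 7404 to 10055, with a median of 7947. The swim dHC libraries had 3945 to 8809, with a median of 7591, and the lowest value, of library 6, was far below the next, 7067. mmu-mir-23a had medians of 4128, 4253, 4641 and 4332 normalised CPM in control vHC, swim vHC, control dHC and swim dHC, within 2642 to 5868. The groups overlapped for each of the 6 members in every comparison of region or stress.

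**Figure D1:**
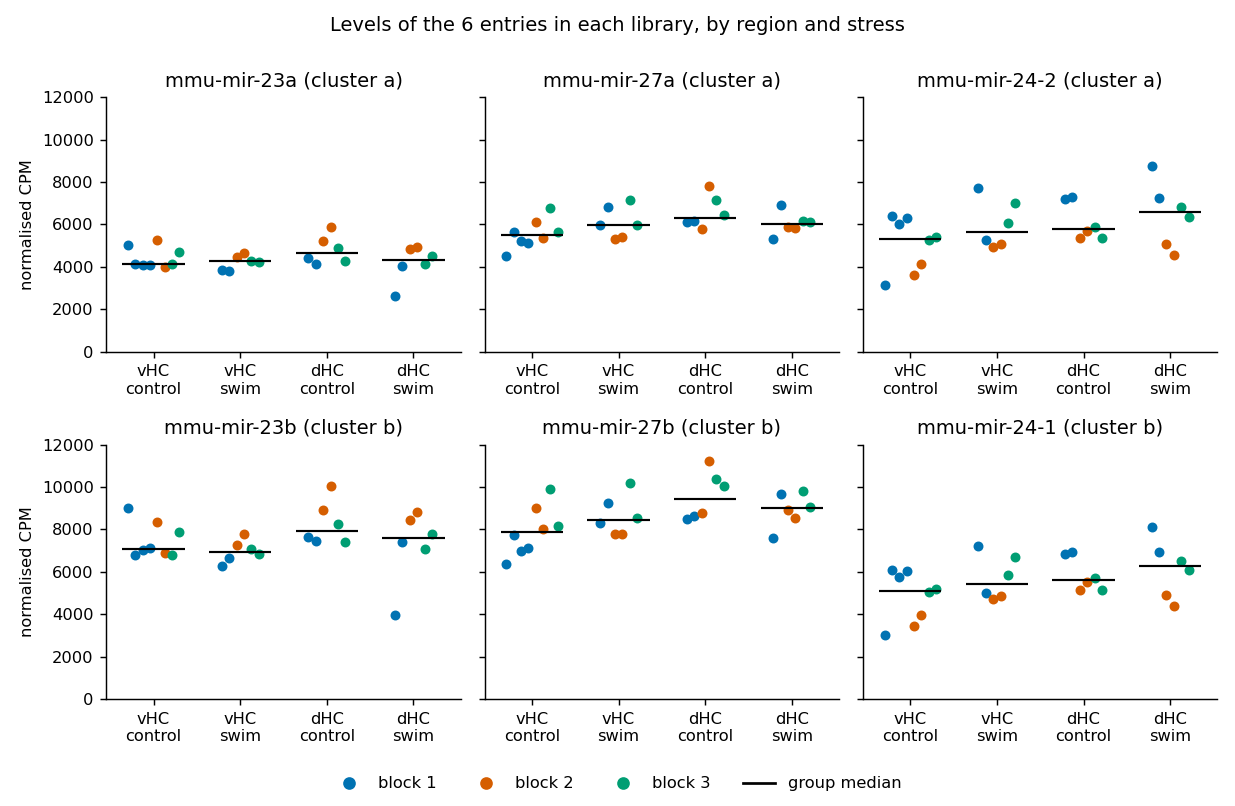
Each point is a library; the y axis gives the normalised CPM of a member and the x axis the 4 groups, with cluster a in the upper row, cluster b in the lower row, colours for the 3 blocks and a bar at each group median. The mir-24 points of block 2 lie on average below those of block 1 in each group. The lowest mmu-mir-24-1 point, 3042 normalised CPM in control vHC, is nevertheless of block 1, and in control dHC block 3 is about as low as block 2 (log2 difference 0.03). The lowest mmu-mir-23b point, 3945 normalised CPM, is swim dHC library 6.

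The first question of the design for this family is how the clusters compare with each other. Cluster b was the more abundant for the copies that can partly be told apart. The ratio of mmu-mir-23a to mmu-mir-23b was between 0.545 and 0.670 over the 26 libraries (median 0.585). The ratio of mmu-mir-27a to mmu-mir-27b was between 0.628 and 0.746 (median 0.695). In both cases the b copy was higher in 26 of 26 libraries. The ratio of mmu-mir-24-2 to mmu-mir-24-1, whose 3p arms are identical, was between 1.03 and 1.08 (median 1.04), with mmu-mir-24-2 higher in 26 of 26. Summed over the 3 genes, cluster a stood at 0.691 to 0.848 of cluster b (median 0.743).

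Entries of a cluster did not keep a constant proportion among themselves. Their counts include sequences split with the other cluster, so the proportions of the genes of a single cluster cannot be read from them. The following ratios within a cluster were chosen after their values were seen and carry no test. The ratio of mmu-mir-24-1 to mmu-mir-23b, both of cluster b, ranged from 0.337 in control vHC library 1 to 2.06 in swim dHC library 6, a 6.11-fold range. The matching ratio in cluster a, mmu-mir-24-2 to mmu-mir-23a, ranged from 0.627 to 3.31 with the same libraries at its ends, a 5.28-fold range. It is not a separate measurement, since miR-24-3p is the same sequence from both clusters. The ratio of mmu-mir-27b to mmu-mir-23b ranged 2.73-fold, from 0.706 to 1.93, again between these libraries. In blocks 2 and 3, which hold neither library, mmu-mir-24-2 to mmu-mir-23a ranged 1.60-fold and 1.45-fold. The copies of a family kept a far narrower ratio over the same libraries, and the part of split sequences in this was not tested.

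After group and block means were subtracted from log2 normalised CPM, copies correlated across the 26 libraries with Pearson's r of 0.97 for mmu-mir-23a with mmu-mir-23b, 0.98 for mmu-mir-27a with mmu-mir-27b and 0.999 for mmu-mir-24-2 with mmu-mir-24-1. Within cluster b, r was 0.08 for mmu-mir-23b with mmu-mir-27b, 0.10 for mmu-mir-27b with mmu-mir-24-1 and -0.48 for mmu-mir-23b with mmu-mir-24-1. Within cluster a the values were 0.15 for mmu-mir-23a with mmu-mir-27a, 0.12 for mmu-mir-27a with mmu-mir-24-2 and -0.45 for mmu-mir-23a with mmu-mir-24-2. These values are descriptions, since the points share libraries, normalisation and, for the copies, sequences. Control vHC library 1 and swim dHC library 6, at the ends of the mir-24 to mir-23 ratios, are among the points. No r was computed without them.

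**Figure D2:**
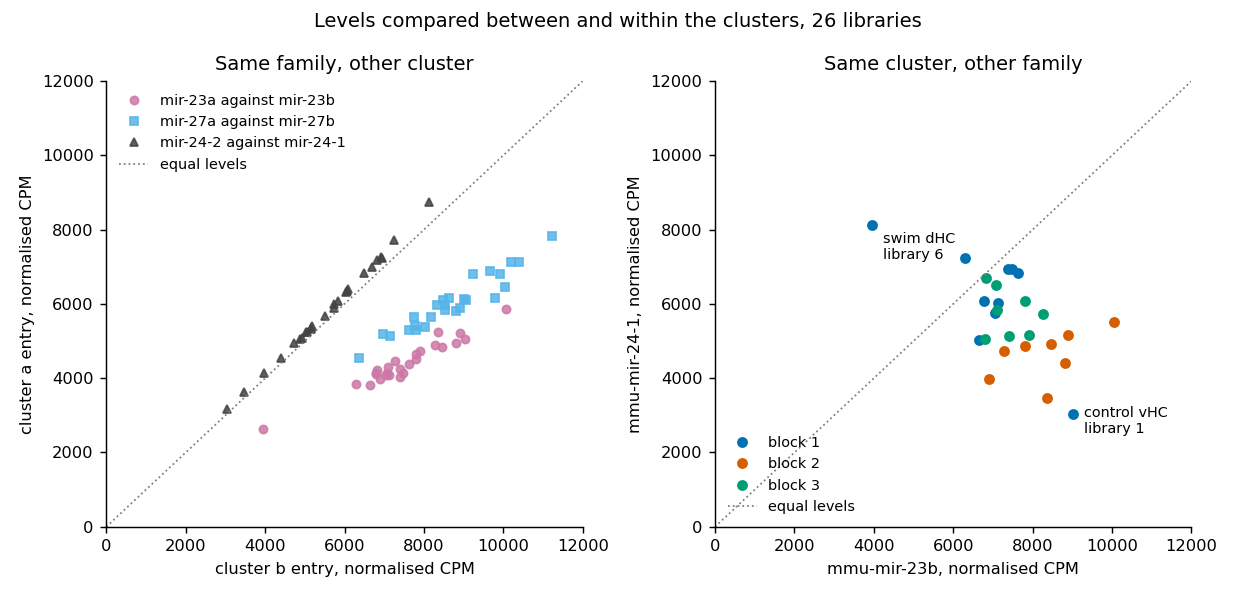
Both panels plot normalised CPM on both axes, 1 point per library, with a dotted line at equal levels. On the left, the cluster a copy is plotted against its cluster b copy and each family keeps to its own narrow line, with medians of 0.585, 0.695 and 1.04; on the right, mmu-mir-24-1 is plotted against mmu-mir-23b of the same cluster with blocks in colour, and the 6.11-fold range of their ratio shows as a wide cloud from swim dHC library 6 to control vHC library 1.

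The second question is whether swim stress changed the family within 45 mins. No member passed the threshold in either region. In vHC the log2 difference, swim minus control, was 0.23 for mmu-mir-24-1 (standard error 0.12), 0.23 for mmu-mir-24-2 (0.12), 0.16 for mmu-mir-27a (0.08) and 0.15 for mmu-mir-27b (0.08). It was -0.05 for mmu-mir-23a (0.10) and -0.07 for mmu-mir-23b (0.11). The adjusted p of the 6 members was between 0.655 and 0.840 by the quasi-likelihood test of edgeR, adjusted after Benjamini and Hochberg over the 463 entries. In dHC the log2 differences were -0.20 for mmu-mir-23a (0.10) and -0.20 for mmu-mir-23b (0.11), -0.10 and -0.09 for mmu-mir-27a and mmu-mir-27b (0.09 each), and 0.06 and 0.05 for mmu-mir-24-2 and mmu-mir-24-1 (0.13 each). Here the adjusted p was between 0.982 and 0.999 by edgeR.

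The count of members called was 0 of 6 in vHC, in dHC, in the joint test of stress and its interaction with region, and for the interaction itself. At an unadjusted p under 0.05 the members numbered 0, 0, 0 and 1, the last being mmu-mir-27a with a log2 interaction of -0.26 (standard error 0.12, adjusted p = 0.954 by edgeR). DESeq2 also called 0. The background was the same, since 0 of 463 entries (0%) were called in each of these tests, with 34 entries at an unadjusted p under 0.05 in vHC and 17 in dHC. The 95% confidence intervals bound the size of a missed change. For mmu-mir-24-1 the interval of the fold in vHC ran from 0.990 to 1.39, and for mmu-mir-23b in dHC from 0.739 to 1.02. Swim dHC library 6 weighs on the mir-23 values: without it the dHC log2 difference was -0.12 for mmu-mir-23a and -0.09 for mmu-mir-23b. The endothelial entry mmu-mir-126a had a log2 difference of 0.30 in vHC and -0.06 in dHC, neither past the threshold, and its part in the member values was not tested.

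No divergence of the clusters with stress was detected. In control vHC the log2 ratio of mmu-mir-27a to mmu-mir-27b was -0.51 ± 0.05 (SD, n = 8), against -0.50 ± 0.04 (SD, n = 6) after swim, and exact permutation gave an adjusted p of 0.948. For mmu-mir-23a to mmu-mir-23b the values were -0.76 ± 0.05 (SD, n = 8) and -0.73 ± 0.04 (SD, n = 6), with an adjusted p of 0.606 by the same exact permutation test. Of the 8 stress contrasts of the 3 ratios and the summed ratio, 0 passed the threshold in the two-sided exact permutation test adjusted over 28 contrasts, and 0 had an unadjusted p under 0.05. This test did not hold block fixed, and block 1 held 4 control but 2 swim vHC libraries. Within blocks 1, 2 and 3 the summed log2 ratio differed, swim minus control, by 0.052, 0.046 and 0.048 in vHC. In dHC it differed by 0.062, -0.024 and 0.029. No stress contrast of the ratios passed under any alternative tried.

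The third question is whether the regions differ. In control mice, both mir-24 members and mmu-mir-27b were higher in dHC than in vHC, and mmu-mir-27a and the mir-23 members did not pass the threshold. The log2 difference, dHC minus vHC, was 0.35 for mmu-mir-24-1 (standard error 0.12, adjusted p = 0.0425 by edgeR), 0.34 for mmu-mir-24-2 (0.12, adjusted p = 0.0487) and 0.25 for mmu-mir-27b (0.09, adjusted p = 0.0450). mmu-mir-27a stood at 0.23 (0.09) with an adjusted p of 0.0712 by edgeR. The values were 0.07 for mmu-mir-23a (0.10, 95% interval -0.13 to 0.27) and 0.10 for mmu-mir-23b (0.11, 95% interval -0.13 to 0.34). Thus 3 of 6 members were called, all of them higher in dHC, where 22.5% of all entries were called and 7.78% were called higher. With each pair of copies summed, a form added after seeing the data, the log2 difference was 0.37 for mir-24 (adjusted p = 0.0220 by edgeR), 0.27 for mir-27 (0.0373) and 0.12 for mir-23 (0.464).

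The region calls lie close to the threshold. The call of mmu-mir-24-1 was lost without control vHC library 17, control dHC library 14 or control dHC library 18 (adjusted p = 0.0521, 0.0561 and 0.0722 by edgeR). That of mmu-mir-24-2 was lost without any one of 9 libraries (5, 8, 14, 17, 18, 21, 24, 25 and 31), at an adjusted p of 0.0509 to 0.0849. That of mmu-mir-27b was lost without any one of 7 libraries (1, 9, 13, 14, 23, 24 and 31), at 0.0596 to 0.126. The call of mmu-mir-27a was gained without any one of 5 libraries (16, 22, 25, 27 and 30), at 0.0351 to 0.0492. With the surrogate variables of the stress fit in place of block the direction of the mir-24 members turned, to -0.09 for mmu-mir-24-2 and -0.05 for mmu-mir-24-1, while mmu-mir-27a was called at 0.73 and was the only member called. One of these variables followed region, with 91.1% of its variance between dHC and vHC. The direction was the same when single libraries were left out, and in every block: within blocks 1, 2 and 3 the difference of mmu-mir-24-1 was 0.45, 0.52 and 0.09, and that of mmu-mir-27b was 0.28, 0.22 and 0.18. Without both control dHC library 24 and swim dHC library 6, 3 members were again called. With the size factors of DESeq2, with TMMwsp (a form of TMM that handles zero counts differently) and with DESeq2 itself, 4 members were called, mmu-mir-27a added at 0.29 in each (adjusted p = 0.0409 and 0.0492 by edgeR and 0.0313 by DESeq2), and all were higher in dHC, while the split of all called entries moved from 36 higher and 68 lower with TMM to 66 and 64 when scaled by the size factors of DESeq2.

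In swim mice 0 of 6 members were called between the regions by edgeR or DESeq2, with 0 at an unadjusted p under 0.05, where 20.3% of all entries were called. The log2 differences were 0.09 for mmu-mir-24-1 (standard error 0.13), 0.09 for mmu-mir-24-2 (0.13), 0.05 for mmu-mir-27b (0.10), -0.01 for mmu-mir-27a (0.10), 0.04 for mmu-mir-23b (0.12) and -0.02 for mmu-mir-23a (0.10). The region difference was not shown to depend on stress. The interaction of mmu-mir-24-1 was -0.18 (standard error 0.17, adjusted p = 0.954 by edgeR) in the stress fit, which has surrogate variables in place of block. In that fit the region difference of mmu-mir-24-1 in control mice was -0.05, so the interaction does not compare the block-fit values given here. No member was called for the interaction under any alternative tried. The ratios of cluster a to cluster b did not pass the threshold between regions in either condition. The largest difference was that of mmu-mir-27a to mmu-mir-27b in swim mice, at -0.57 ± 0.06 (SD, n = 6) in dHC and -0.50 ± 0.04 (SD, n = 6) in vHC on the log2 scale (adjusted p = 0.283, exact permutation).

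Markers of other cell types moved between the regions in the same libraries. All 3 oligodendrocyte entries were higher in dHC of control mice (mmu-mir-219a-1, mmu-mir-219a-2 and mmu-mir-338, by 0.99, 0.47 and 0.50 on the log2 scale), with a summed level of 3321 to 4939 normalised CPM in control vHC and 4329 to 7617 in control dHC. Of 6 choroid plexus entries 3 were higher and 3 lower. Of 4 erythroid entries 2 were lower, mmu-mir-486a and mmu-mir-486b at -0.92 each, while mmu-mir-144 (0.40) and mmu-mir-451a (0.15) were not called. Of all entries, 22.5% were called in this comparison. The endothelial entry, the 2 mural, the 4 myeloid and microglial and the 9 neuronal entries gave 0 calls in this comparison by edgeR. The part of these cells in the member values was not tested.

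**Figure D3:**
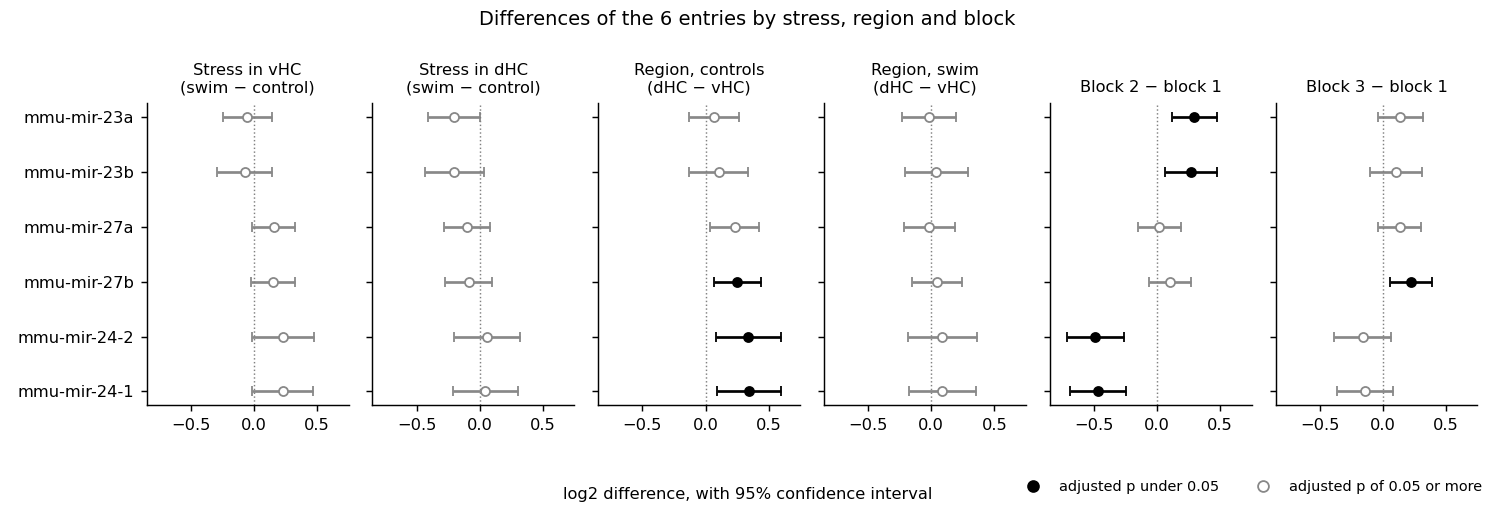
Points give log2 differences of the 6 members in 6 comparisons on the x axis, with 95% confidence intervals as bars, and filled points have an adjusted p under 0.05 by edgeR. Stress gives 0 filled points, region in control mice gives 3 (mmu-mir-27b and both mir-24 copies), and block 2 against block 1 gives 4 in opposite directions.

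Block had the largest differences of the family, and its members did not move one way. Against block 1, block 2 had lower mmu-mir-24-1 and mmu-mir-24-2, by -0.47 (standard error 0.11, adjusted p = 0.000814 by edgeR) and -0.49 (0.11, adjusted p = 0.000649) on the log2 scale. It had higher mmu-mir-23a and mmu-mir-23b, by 0.30 (0.09, adjusted p = 0.00556) and 0.27 (0.10, adjusted p = 0.0256). The mir-27 members lay between, with log2 differences of 0.02 for mmu-mir-27a (0.08) and 0.10 for mmu-mir-27b (0.08), neither past the threshold, although mmu-mir-27b was called at 0.20 without swim dHC library 16 (adjusted p = 0.0440 by edgeR). So 4 of 6 members were called, 2 higher and 2 lower, where 52.5% of all entries were called, 22.7% higher and 29.8% lower. The copies share sequences and are not separate measurements. With each pair summed, a form added after seeing the data, the log2 difference was -0.46 for mir-24 (adjusted p = 0.000652 by edgeR). It was 0.29 for mir-23 (0.0202) and 0.08 for mir-27 (0.434). When scaled by the size factors of DESeq2, 137 entries were called higher and 119 lower, in place of 105 and 138. The mir-24 copies were lower in block 2 within each of the 4 groups, and the mir-23 copies were higher within each of the 4. In normalised CPM, mmu-mir-24-1 was between 3042 and 8118 in block 1 (median 6456, 10 libraries) and between 3467 and 5501 in block 2 (median 4804, 8 libraries).

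Block 3 against block 1 gave 1 member called of 6, mmu-mir-27b at 0.22 (standard error 0.08, adjusted p = 0.0232 by edgeR), where 52.1% of all entries were called. The split of all called entries moved from 102 higher and 139 lower to 130 higher and 108 lower with TMMwsp. That call was lost without control vHC library 25 (adjusted p = 0.0674), while mmu-mir-23a was called without control vHC library 1 or 23, and mmu-mir-27a without swim dHC library 16. Between blocks 3 and 2 edgeR called 0 members and 0 of 463 entries (0%), with 2 members, the mir-24 copies at 0.33 each, and 51 entries at an unadjusted p under 0.05. In the joint test of the 3 blocks mmu-mir-23a, mmu-mir-24-1 and mmu-mir-24-2 were called, 3 of 6, against 53.1% of all entries. mmu-mir-23b was also called there without any one of 8 libraries (1, 7, 8, 9, 16, 17, 23 and 30), at an adjusted p of 0.00882 to 0.0471 by edgeR, and mmu-mir-27b without any one of 18 libraries, at 0.00702 to 0.0462.

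Some cell type markers moved between the blocks as well. Of all entries, 52.5% were called between blocks 2 and 1 and 52.1% between blocks 3 and 1. Between blocks 2 and 1, the erythroid entry mmu-mir-144 (-0.88), the myeloid entry mmu-mir-142a (-0.86), the choroid plexus entry mmu-mir-429 (-0.76) and the 3 neuronal mir-124 entries (-0.33 each) were called lower on the log2 scale. The oligodendrocyte entry mmu-mir-338 (0.38), mmu-mir-486a and mmu-mir-486b of the erythroid list (0.46 each) and mmu-mir-449a of the choroid plexus list (0.54) were called higher. The other neuronal entries were not called. Of these, mmu-mir-128-1 and mmu-mir-128-2 stood at 0.25 each, the 3 mir-9 entries at 0.10 each and mmu-mir-132 at -0.07. Of the myeloid and microglial entries, mmu-mir-223 (-0.02), mmu-mir-146a (-0.09) and mmu-mir-155 (0.08) were not called. Between blocks 3 and 1 the endothelial entry mmu-mir-126a was called higher, at 0.44, with 3925 to 8475 normalised CPM in block 1, 6149 to 9321 in block 2 and 7938 to 11315 in block 3. Also called there were mmu-mir-338 and the choroid plexus entry mmu-mir-200a, higher, and mmu-mir-144, mmu-mir-142a, mmu-mir-429 and the 3 mir-124 entries, lower. In both comparisons 6 of 9 neuronal and 3 of 4 myeloid and microglial entries were not called. The same held for 2 of 3 oligodendrocyte and 4 of 6 choroid plexus entries. The summed oligodendrocyte level was 3321 to 6941 normalised CPM in block 1, 3879 to 7617 in block 2 and 4049 to 6293 in block 3, and the other lists also overlapped between blocks in their summed level. The part of these entries' cells in the member values was not tested.

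The ratio of mmu-mir-27a to mmu-mir-27b also moved with block. In block 1 it was between 0.695 and 0.746 (median 0.718, 10 libraries), in block 2 between 0.659 and 0.697 (median 0.679, 8 libraries) and in block 3 between 0.628 and 0.701 (median 0.686, 8 libraries). The range of block 1 met those of blocks 2 and 3 only at its lower end, while the ranges of blocks 2 and 3 overlapped. The mean log2 ratio of block 1 was -0.47 ± 0.03 (SD, n = 10). That of block 2 was -0.56 ± 0.03 (SD, n = 8), and for block 3 it was -0.56 ± 0.06 (SD, n = 8). Block 2 and block 3 were each lower than block 1 by -0.09 (adjusted p = 0.000960 in both, exact permutation), and the ratio was lower within each of the 4 groups in both comparisons. These calls held in each of the alternatives tried.

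The other ratios moved less. mmu-mir-24-2 to mmu-mir-24-1 was lower in block 2 than in block 1 by -0.0185 on the log2 scale (adjusted p = 0.0464, exact permutation), a call lost without any one of 12 libraries (5, 6, 7, 8, 13, 14, 18, 19, 20, 21, 22 and 24), at an adjusted p of 0.0556 to 0.135. The summed ratio was lower in block 2 than in block 1 by -0.10 (adjusted p = 0.0269, exact permutation), which was lost without control dHC library 18, swim dHC library 20 or swim dHC library 22 (adjusted p = 0.0533, 0.0566 and 0.0595). It was also lost without the mir-24 entries (-0.05, adjusted p = 0.149). For mmu-mir-23a to mmu-mir-23b none of the 3 block contrasts passed the threshold (adjusted p of 0.794 to 0.899, exact permutation, 0 at an unadjusted p under 0.05).

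**Figure D4:**
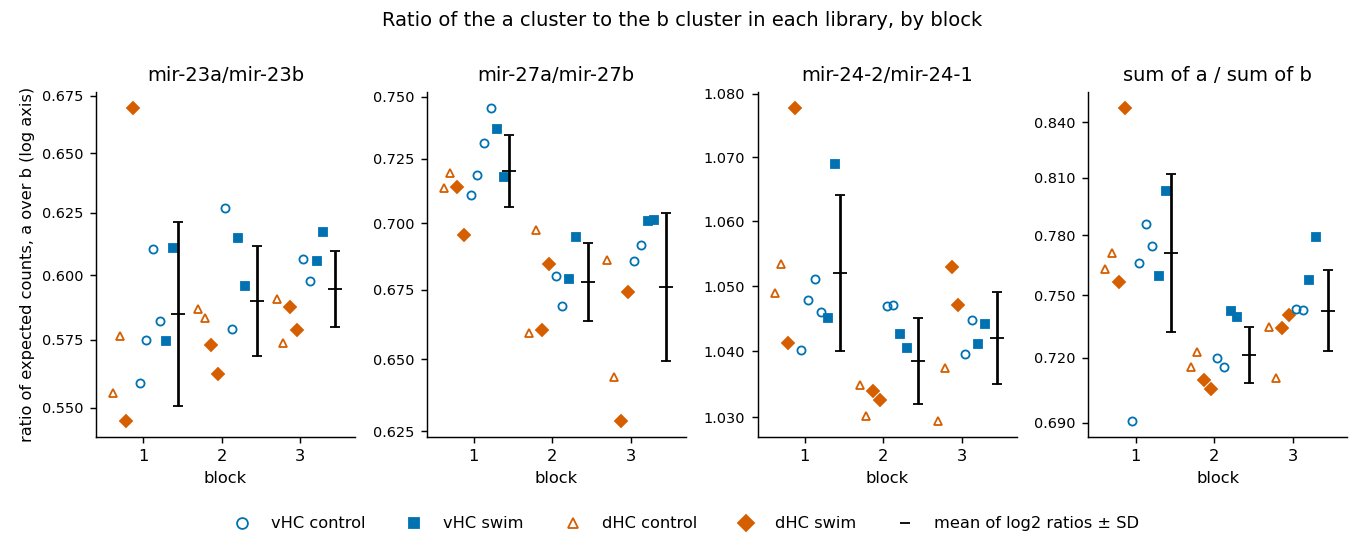
The y axis, logarithmic, gives the ratio of cluster a to cluster b counts in each library, the x axis the block, symbols the groups, and black bars the mean of log2 ratios with its SD. For mmu-mir-27a to mmu-mir-27b the block 1 libraries lie at 0.695 to 0.746 and those of blocks 2 and 3 at 0.628 to 0.701, whereas the mir-23 ratio of swim dHC library 6, 0.670, stands above all others.

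Other miRNA clusters were read from the same fits for comparison. They were listed with their duplicates, except mir-221 and mir-222, which were listed as a single cluster. Of 30 entries in these clusters (the mir-181, mir-29, mir-99/let-7/mir-125, mir-221 and mir-17/106b groups), 6 were higher and 0 lower in dHC of control mice, with a median log2 difference of 0.22 beside 0.01 over all entries tested. There 22.5% of all entries were called and 7.78% called higher. The 6 were mmu-mir-181c and, of the mir-17/106b group, mmu-mir-18a, mmu-mir-19b-1, mmu-mir-106b, mmu-mir-93 and mmu-mir-25. Between blocks 2 and 1, 8 were higher and 11 lower, where 22.7% of all entries were called higher and 29.8% lower. Neighbours in a cluster could differ in size of change there as well: mmu-mir-181c fell by 1.13 on the log2 scale, while mmu-mir-181d of the same cluster stood at -0.14 and did not pass the threshold (adjusted p = 0.165 by edgeR). For stress in vHC and in dHC, 0 of the 30 were called by edgeR, and DESeq2 called 0 of all entries.

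The relatives by sequence were at quite different levels. mmu-mir-128-1 and mmu-mir-128-2, whose mature miRNA shares 6 bases of the miR-27 seed at an offset of 1, had medians of 23732 and 18770 normalised CPM, above each of the mir-27 members. In dHC of control mice they stood at -0.31 and -0.28 on the log2 scale (adjusted p = 0.0782 and 0.134 by edgeR), opposite in sign to the mir-27 members. mmu-mir-3074-1 and mmu-mir-3074-2, annotated on the strand opposite to mmu-mir-24-1 and mmu-mir-24-2, had medians of 4.52 and 2.82 normalised CPM. Only mmu-mir-3074-1 passed the filter on low counts, and it was not called in any of the region, stress or block comparisons given here.

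The entries whose pattern was most like that of the clusters were sought by Pearson's r of log2 normalised CPM across 26 libraries after subtraction of group and block means. For the sum of cluster a they were mmu-mir-335 (r = 0.77), mmu-mir-30e (0.70) and mmu-mir-29c (0.69). For the sum of cluster b they were mmu-mir-335 (0.68), mmu-mir-148b (0.64) and mmu-mir-6948 (0.64), the last with a median of only 4.49 normalised CPM. Taken family by family, which was done after the values were seen, the closest entries were others and the values higher. The mir-23 pair was closest to mmu-mir-30c-1 (0.92), mmu-mir-30c-2 (0.90) and mmu-mir-125a (0.84). The mir-24 pair was closest to mmu-mir-22 (0.94), mmu-mir-376c (0.87) and mmu-mir-376a (0.85), and the mir-27 pair to mmu-mir-148b (0.80), mmu-mir-3962 (0.73) and mmu-mir-218-2 (0.67). The points share libraries and normalisation, and no test was made.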

How the data were processed

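Small RNA of 26 hippocampal libraries (NEXTflex small RNA libraries with molecular identifiers) was analysed. The authors trimmed reads with cutadapt, collapsed identical reads with the same identifier, annotated sequences with Sports 1.0 and deposited the expected counts, which need not be whole because a sequence matching several entries is split. The label gives the build as GRCm38. Expected counts were rounded for edgeR 4.0.16 (R 4.3.3) and used unrounded for ratios. Entries passed filterByExpr (minimum count 10, minimum total 15), TMM normalisation over miRNA counts was applied, and p-values were adjusted by Benjamini-Hochberg over 463 entries with a threshold of 0.05. Stress was tested with region, stress, their interaction and 2 surrogate variables (sva 3.50.0), as in the study's methods, and region and block with block in their place. Ratios were tested by two-sided exact permutation on the log2 scale, adjusted over 28 contrasts. The fits were also run on simulated counts, with changes larger than those of the members and no sequences shared between entries. That check therefore does not cover differences of the size read here or the split counts of the copies. The labels do not say that libraries came from separate mice, so p-values measure only the spread between these samples, which may be technical. Intervals cover 95% and use the t distribution with the degrees of freedom of the fit. Depth was 465387 to 4819724 miRNA counts per library. The text names all 6 members, entries of lists (other miRNA clusters, relatives by sequence, cell type markers) and the 3 entries most like each summed cluster. Members and lists were chosen with earlier results of these data known. Alternatives were other scalings, covariates and filters, DESeq2 1.42.0 and leaving out each library. 0 columns were without a sample.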

Additional observations from a re-analysis of the deposited data

Results flagged for a closer look

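Of 40 sets of values tested (members and ratios in each group), 4 had a library far from the others by Dixon's criterion, where chance alone flags about 1 in 20, or 2. The sets share libraries and counts, so the flags are not separate events and the comparison with chance is only rough. Swim dHC library 6 gave 3 of them, and each of the 3 contains its mmu-mir-23b count. Its mmu-mir-23b was 3945 normalised CPM, below the next library of its group at 7067. Its ratio of mmu-mir-23a to mmu-mir-23b was 0.670, above the next at 0.588, and its summed ratio of cluster a to cluster b was 0.848, above the next at 0.757. In swim vHC, library 5 had a ratio of mmu-mir-24-2 to mmu-mir-24-1 of 1.07, above the next at 1.05.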

How the results depend on the processing

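No paired analysis was made, because no library number is shared by the groups and the labels do not tie dHC and vHC libraries to a mouse. The region tests are therefore unpaired. Each dHC number follows directly on that of a vHC library of the same condition and block, but no source used here says that such neighbours share a mouse, and they were not paired. No member was called for stress under any alternative tried. The calls of region in control mice were the least stable: 0 members were called with no filter on low counts, 0 with no block, 1 with the surrogate variables of the stress fit in place of block, and 0 to 4 when single libraries were left out, while 4 were called with the size factors of DESeq2, with TMMwsp and with DESeq2. In the joint test of block, 5 members were called with the size factors of DESeq2, with DESeq2 and with library size over the whole table, and 3 to 5 when single libraries were left out. With each pair summed, so that 3 entries stood for the 6 members, 1 was called in the joint test of block and 2 between blocks 2 and 1. Between blocks 3 and 1, 0 members were called with no filter on low counts, and 0 to 2 when single libraries were left out. The causes were not tested.

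With the surrogate variables of the stress fit in place of block, the region differences of the mir-24 members in control mice, called at 0.34 and 0.35, turned to -0.0906 for mmu-mir-24-2 and -0.0480 for mmu-mir-24-1. The other values that changed sign had not been called. In the same fit the region differences in swim mice were 0.18 for mmu-mir-23a, 0.47 for mmu-mir-27a, -0.26 for mmu-mir-24-2 and -0.23 for mmu-mir-24-1. For region in swim mice the size factors of DESeq2 gave 0.00325 for mmu-mir-23a and 0.00234 for mmu-mir-27a, and DESeq2 gave 0.00331 and 0.00238. With libraries 24 (control dHC) and 6 (swim dHC) both left out, which was added after seeing the data, these were 0.0898 and 0.0339, the interaction of mmu-mir-23b was 0.00193 and the difference of mmu-mir-27a between blocks 2 and 1 was -0.00641. With depth as a term beside block the latter was -0.0123.

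Leaving out single libraries gave, for stress in vHC, -0.0761 to 0.0514 for mmu-mir-23a and -0.11 to 0.0509 for mmu-mir-23b. For stress in dHC it gave -0.0123 to 0.0999 for mmu-mir-24-2 and -0.0208 to 0.0879 for mmu-mir-24-1, and for the interaction of mmu-mir-23b -0.24 to 0.00103. For region in swim mice it gave -0.0591 to 0.0726 for mmu-mir-23a, -0.0981 to 0.0395 for mmu-mir-27a, -0.0157 to 0.16 for mmu-mir-23b and -0.0326 to 0.0986 for mmu-mir-27b. For block 2 against 1 it gave -0.0057 to 0.11 for mmu-mir-27a.

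Among the log2 ratios, the difference of medians gave -0.0104 for mmu-mir-23a to mmu-mir-23b with stress in dHC, -0.000477 for mmu-mir-27a to mmu-mir-27b and -0.00428 for mmu-mir-24-2 to mmu-mir-24-1 with stress in vHC, 0.0139 for mmu-mir-27a to mmu-mir-27b between blocks 3 and 2, and -0.0989 (adjusted p = 0.0616, exact permutation) for the summed ratio between blocks 2 and 1. Without both libraries named above, the values were -0.0184 for mmu-mir-23a to mmu-mir-23b and -0.0188 for the summed ratio with stress in dHC, 0.00191 for mmu-mir-27a to mmu-mir-27b between blocks 3 and 2, and -0.00764 for mmu-mir-24-2 to mmu-mir-24-1 with region in swim mice. Between blocks 2 and 1 they were -0.0130 for mmu-mir-24-2 to mmu-mir-24-1 and -0.0814 for the summed ratio. With the mir-24 entries left out, the summed ratio gave -0.00339 with stress in dHC and -0.0478 between blocks 2 and 1. With labels exchanged only within groups, mmu-mir-24-2 to mmu-mir-24-1 between blocks 2 and 1 (-0.0185) no longer passed the threshold and the summed ratio between blocks 3 and 2 (0.0420) did. Leaving out single libraries gave, for mmu-mir-23a to mmu-mir-23b, -0.0212 to 0.0382 with stress in dHC and -0.000211 to 0.0341 between blocks 2 and 1. For mmu-mir-27a to mmu-mir-27b it gave -0.0104 to 0.0144 with stress in vHC and -0.0114 to 0.0112 between blocks 3 and 2. For mmu-mir-24-2 to mmu-mir-24-1 it gave -0.00764 to 0.00657 with region in swim mice, -0.00378 to 0.00401 with stress in vHC and -0.0203 to -0.0146 between blocks 2 and 1. For the summed ratio it gave -0.0258 to 0.000761 with region in control mice, -0.0136 to 0.0394 with stress in dHC, -0.11 to -0.0809 between blocks 2 and 1, -0.0718 to -0.0389 between blocks 3 and 1 and 0.0320 to 0.0511 between blocks 3 and 2. In the summed ratio the call between blocks 3 and 1 was gained without control vHC library 1 (-0.0718, adjusted p = 0.0176, exact permutation) and that between blocks 3 and 2 without control dHC library 32 (0.0511, adjusted p = 0.0228, exact permutation).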
